A study of Mus musculus with 12 samples.

Results

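The S100 alarmin family was followed in the neonatal mouse liver through 8 genes, S100a1, S100a4, S100a6, S100a8, S100a9, S100a10, S100a11 and S100a13, which were chosen by name and make up 8 of the 32285 genes in the count files. Livers of 12 C57BL6/J pups were dissociated and profiled by single-cell RNA sequencing at postnatal day 11 by the labels, with 1 library per mouse. The anemia group (n = 6) had phlebotomy-induced anemia, in which 20 µL of blood per g of body weight was drawn from the facial vein every other day from day 2 to day 10, and the control group (n = 6) had a daily needle stick without a draw. No mouse carried an engineered allele by its label. Pups were randomized to the groups, but the labels do not tie a library to a litter. A total of 206146 cells were kept, 98075 from control and 108071 from anemic livers, with 45751640 to 74344118 unique molecular identifiers (UMIs, each standing for 1 captured mRNA molecule) per library.

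S100 proteins are small calcium-binding proteins with paired EF-hand loops, and most of them work as dimers that change shape when calcium binds. Inside cells they attach to annexins, myosins and other targets. Several are called alarmins because, once released from injured or activated cells, they bind receptors such as Tlr4 and Ager (RAGE) on other cells. S100a8 and S100a9 form calprotectin, which fills much of the cytosol of neutrophils and withholds zinc and manganese from microbes.

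Cells were sorted into 18 classes named from marker genes, and the S100 genes were left out of the clustering, so that no member defined a class. Each class name stands for cells that look like that type by their markers ("monocyte" for monocyte-like cells), since no cell labels of the authors were used. Levels are given as UMIs of a gene per 1000000 UMIs of the class in 1 mouse (CPM). The reads tag the 3′ end of each mRNA, so levels were not divided by gene length, and a level of 1 gene was compared with that of another only as a ratio that is followed from class to class. Anemic mice 2 and 3 stood apart from the other anemic mice: they held 4544 and 2061 of the 9928 monocytes, against 252 to 478 in each of the other 10 mice. Called differences that were lost without these mice are given with and without them. Between 51 and 121 cell barcodes were shared by each pair of libraries.

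The 8 genes lie on chromosome 3 (GRCm38). S100a1 (ENSMUSG00000044080, 90511034 to 90514392, minus strand) and S100a13 (ENSMUSG00000042312, 90514435 to 90524581, plus strand) stand head to head, and the promoter windows of the pair share 204 bases. Next to them lie S100a4 (ENSMUSG00000001020, 90603771 to 90606045, plus strand), S100a6 (ENSMUSG00000001025, 90612882 to 90624181, plus strand), S100a8 (ENSMUSG00000056054, 90668978 to 90670035, plus strand) and S100a9 (ENSMUSG00000056071, 90692632 to 90695721, minus strand). S100a11 (ENSMUSG00000027907, 93520488 to 93526287, plus strand) and S100a10 (ENSMUSG00000041959, 93555080 to 93564643, plus strand) are neighbors farther along the chromosome. S100a4 shares exons with the overlapping gene Gm42674 on the same strand, so its counts are uncertain to the extent that reads of the overlap could not be assigned.

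Promoter windows of 300 bases (250 before and 50 after the start annotated by RefSeq, GRCm38.p6) were found for 7 of the 8 members. Those of the calprotectin pair are shown because S100a8 and S100a9 had the closest pattern across classes of any pair in the family, with the TATA box letters TATAAA in capitals. The S100a8 window is chr3:90668821-90669120 on the plus strand and the S100a9 window is chr3:90695672-90695971 on the minus strand.
S100a8: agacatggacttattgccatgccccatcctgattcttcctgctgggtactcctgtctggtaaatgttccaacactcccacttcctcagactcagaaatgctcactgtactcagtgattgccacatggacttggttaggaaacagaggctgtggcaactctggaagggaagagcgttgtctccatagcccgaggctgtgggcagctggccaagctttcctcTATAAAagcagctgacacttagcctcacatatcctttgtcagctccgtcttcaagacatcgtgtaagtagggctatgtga
S100a9: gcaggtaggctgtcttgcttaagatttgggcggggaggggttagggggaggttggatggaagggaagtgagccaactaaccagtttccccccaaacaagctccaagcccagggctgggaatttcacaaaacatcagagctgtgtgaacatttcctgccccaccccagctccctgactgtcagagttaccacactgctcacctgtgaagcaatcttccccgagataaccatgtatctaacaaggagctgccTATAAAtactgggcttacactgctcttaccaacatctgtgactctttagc
The letters TATAAA, searched on both strands, begin 30 bases before the annotated start in S100a8 and at position 0, the annotated start itself, in S100a9. S100a4 held them 31 bases before its start, and the windows of S100a1, S100a6, S100a11 and S100a13 did not hold them. Thus 3 of the 7 members held TATAAA, and 13.6% of the 32851 RefSeq promoter windows of the same length did. Of other motifs searched on both strands, GAGGAA was in the windows of S100a4, S100a8 and S100a11 and in 28.3% of all windows, TGAGTCA was in that of S100a11 and in 5.20% of all windows, and CCAAT was in that of S100a6 and in 37.4% of all windows. No motif of the 4 is contained in another, and a match of letters is a description and not a binding site.

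Levels of the members differed over orders of magnitude between classes, with highest classes among the myeloid, epithelial, endothelial and mesothelial cells. S100a8 and S100a9, the calprotectin subunits, were highest in immature neutrophils. S100a6 and S100a11 were highest in mature neutrophils, S100a4 in monocytes, S100a10 in mesothelial cells, S100a1 in hepatocytes and S100a13 in endothelial cells, by the mean of 12 mice. For S100a1 hepatocytes and mesothelial cells did not differ beyond their spread (adjusted p = 0.781, exact permutation test), and in control mice alone hepatocytes, at 105 CPM, stood below mesothelial cells (165), cholangiocytes (146) and endothelial cells (112). For S100a6 mature neutrophils and mesothelial cells did not differ beyond their spread (adjusted p = 0.0890, exact permutation test), and in anemic mice the means were 3087 and 3206 CPM. The S100a10 levels of mesothelial cells and cholangiocytes did not differ beyond their spread either (adjusted p = 0.0990, exact permutation test), with 437 and 427 CPM in control mice. Called doublets made up 80.4% of the mesothelial and 76.9% of the cholangiocyte class. The highest class exceeded the lowest by a factor of 5393 for S100a8, 3492 for S100a9, 550.0 for S100a4, 434 for S100a6, 221 for S100a11, 41.6 for S100a10, 31.5 for S100a1 and 12.5 for S100a13. S100a8 and S100a9 thus had the steepest profiles and S100a13 the flattest.

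**Figure D1:**
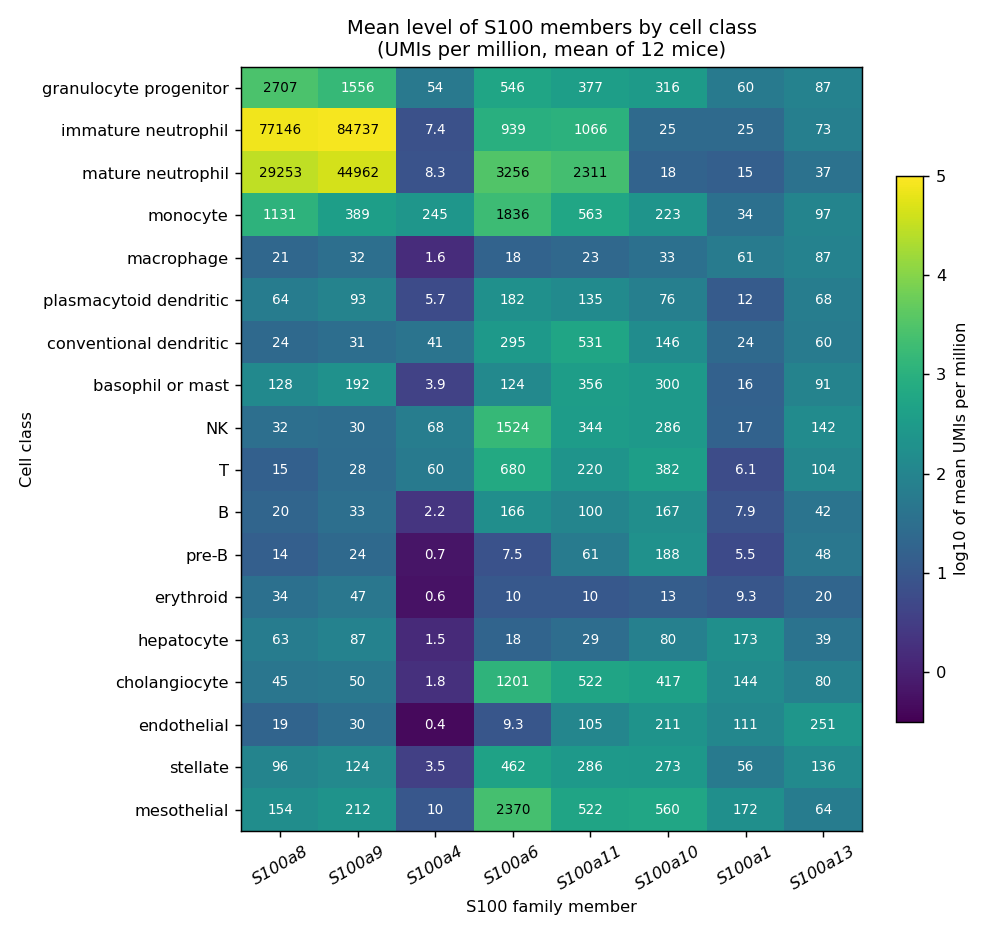
Mean level of the 8 members (columns) in 18 cell classes (rows) in CPM over 12 mice, with color giving the log10 of the level and the number in each field the level itself. S100a8 and S100a9 are brightest in immature neutrophils at 77146 and 84737 CPM, while S100a6 is between 1201 and 3256 CPM in mature neutrophils, monocytes, NK cells, cholangiocytes and mesothelial cells.

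The members together took 16.4% ± 1.41 (SD, n = 12) of the UMIs of immature neutrophils and 7.99% ± 1.44 of those of mature neutrophils. In granulocyte progenitors, the class that carries the primary granule genes Elane and Mpo, they took 0.570% ± 0.132, and in monocytes 0.452% ± 0.0935. The share fell to 0.0277% ± 0.00423 in macrophages and 0.0146% ± 0.00707 in erythroid cells. Over all cells it was 0.547% ± 0.204. The leading genes of the granulocyte progenitor class also included Ly6c2 and F13a1 of the monocyte markers and Ppbp and Pf4 of the megakaryocyte markers. The part of such cells in its values was not tested.

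The calprotectin genes followed the order of neutrophil stages, with a peak at the immature stage. S100a8 stood at 2707 ± 796 CPM (SD, n = 12) in granulocyte progenitors, 77146 ± 6892 in immature neutrophils and 29253 ± 5526 in mature neutrophils. S100a9 stood at 1556 ± 495, 84737 ± 8158 and 44962 ± 8217 CPM in the same classes. The log2 ratio of immature to mature neutrophils was 1.43 ± 0.07 (SE) for S100a8 and 0.94 ± 0.08 for S100a9, and that of mature neutrophils to granulocyte progenitors was 3.46 ± 0.20 and 4.90 ± 0.19. Each of these 4 steps went the same way in 12 of 12 mice (exact two-sided sign-flip permutation test, p = 0.000488, the smallest the design allows, adjusted p = 0.00415 over 136 neighboring pairs of classes, of which 41 passed). The median immature neutrophil of a mouse held 132.5 to 289.5 UMIs of S100a8, which was 5.77% to 8.08% of its UMIs. In the median mature neutrophil it was 7 to 40 UMIs. The median granulocyte progenitor held 0 UMIs of either gene in every mouse, and 40.6% ± 6.36 of progenitors had a UMI of S100a8 and 30.4% ± 4.62 a UMI of S100a9, so the progenitor means came from a minority of cells.

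Outside the neutrophil stages, monocytes were the class with the most S100a8 and S100a9. S100a8 reached 1131 ± 687 CPM in monocytes, lower than in granulocyte progenitors by 1.38 ± 0.25 on the log2 scale (adjusted p = 0.00632, exact permutation test) and higher than in mesothelial cells, the next class, by 4.37 ± 0.54 (adjusted p = 0.00415). S100a9 reached 389 ± 237 CPM in monocytes, lower than in granulocyte progenitors by 2.19 ± 0.38 (adjusted p = 0.00632, exact permutation test). A UMI of S100a8 was seen in 28.3% ± 13.2 of monocytes, which had a median of 3134 UMIs. For B cells the share was 2.81% ± 0.97, at a median of 1388 UMIs. With cells thinned to 1000 UMIs, which left out 205 monocytes and 4044 B cells, the shares were 18.7% ± 8.97 and 1.77% ± 0.83. For S100a9 the thinned shares were 7.01% ± 4.46 of monocytes and 2.98% ± 1.16 of B cells. Among the 8702 monocytes without a UMI of the neutrophil genes Ltf, Camp, Ngp, Retnlg, Elane or Mpo, S100a8 was at 994 ± 735 CPM and S100a9 at 271 ± 241 CPM. Lack of such a UMI does not show that a cell is free of neutrophil RNA, since 38.3% of mature neutrophils had none.

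**Figure D2:**
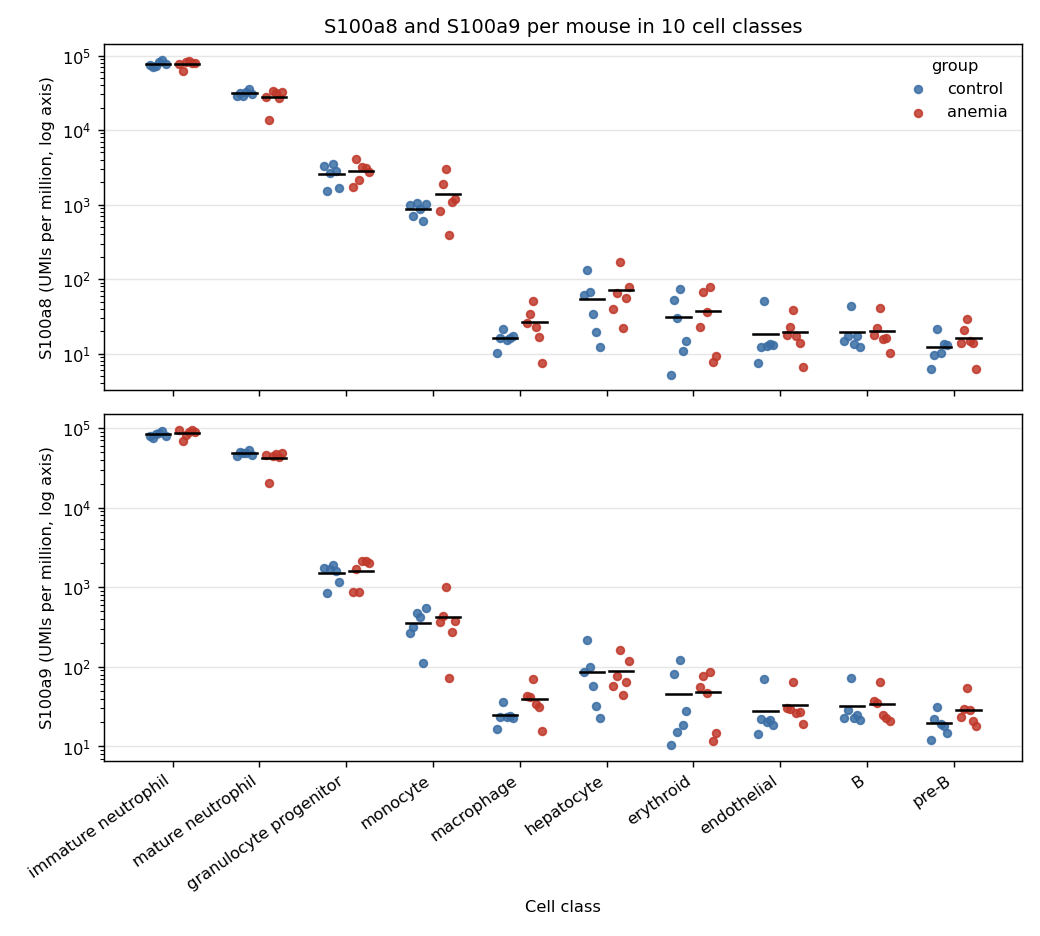
S100a8 (upper) and S100a9 (lower) in CPM on a log axis in 10 cell classes, each point 1 mouse (blue control, red anemia, 6 each) and each black line the mean of a group. Points of immature and mature neutrophils sit at 13674 CPM or higher and those of monocytes between 72.9 and 2978 CPM, and in each of the 10 classes the points of the groups overlap.

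The balance between the subunits differed along the same path, which is given as a description. S100a9 UMIs per S100a8 UMI, summed over mice, were 0.556 (95% binomial interval 0.547 to 0.566, counting error only) in granulocyte progenitors, 1.09 (1.087 to 1.093) in immature neutrophils and 1.49 (1.48 to 1.49) in mature neutrophils. The ratio was under 1 in 12 of 12 mice in progenitors, where it ran from 0.399 to 0.740, and over 1 in 12 of 12 mice at the later stages, where it ran from 1.001 to 1.24 and from 1.37 to 1.70. Monocytes had the lowest ratio, 0.279 (0.275 to 0.284), with 0.184 to 0.546 in single mice. In macrophages it was 1.46 (1.39 to 1.53), in endothelial cells 1.62 (1.54 to 1.71), in B cells 1.64 (1.52 to 1.77), in hepatocytes 1.43 (1.35 to 1.52) and in erythroid cells 1.35 (1.27 to 1.43). NK cells were below 1 as a sum at 0.887 (0.827 to 0.951), with 7 of 12 mice above it. This sum rested on cluster 58, with 560 of the NK cells, of which 92.9% were called doublets, where S100a8 was at 205.5 and S100a9 at 66.2 CPM. In the other 4 NK clusters S100a9 was above S100a8, at 26.4 to 31.2 against 13.99 to 21.8 CPM.

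**Figure D3:**
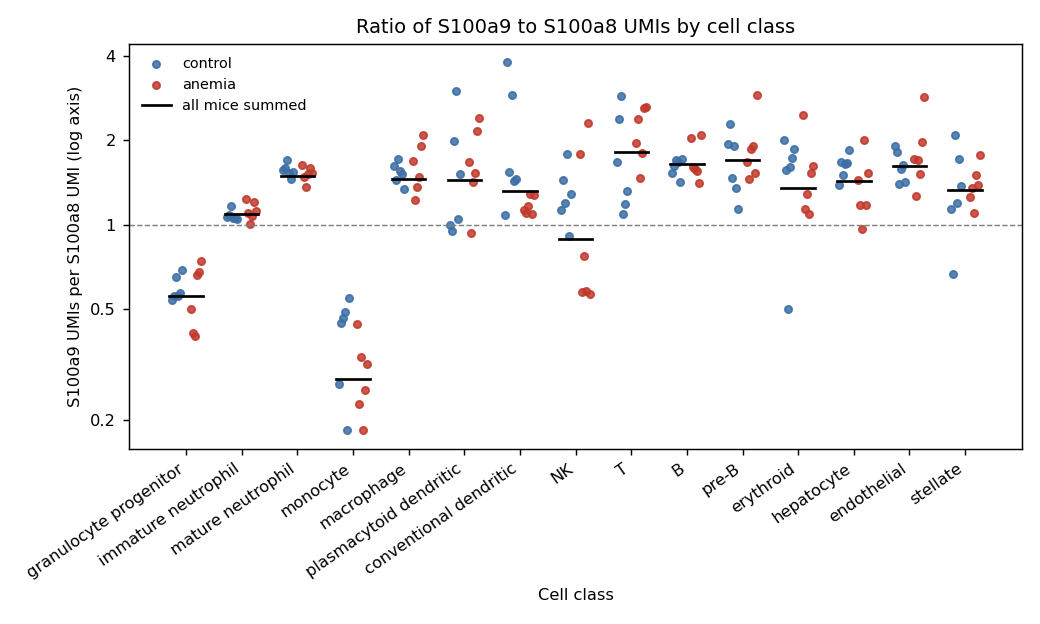
S100a9 UMIs per S100a8 UMI on a log axis in the 15 classes in which each of the 12 mice had at least 5 UMIs of each gene, with points for mice (blue control, red anemia) and black lines for the sum over mice. Granulocyte progenitors and monocytes lie below the dashed line at 1, and immature neutrophils, mature neutrophils and macrophages lie above it in 12 of 12 mice.

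Macrophages, the resident phagocytes of the liver, held little of either subunit. S100a8 was at 21.2 ± 11.9 CPM and S100a9 at 32.0 ± 15.1 CPM in macrophages, values that stood beside those of B cells (20.1 and 33.1), endothelial cells (18.9 and 30.4), T cells (15.1 and 27.5) and pre-B cells (14.3 and 24.3). For S100a8 none of the 13 neighboring steps below mesothelial cells passed the test, and the step from macrophages to B cells was 0.04 ± 0.15 on the log2 scale (adjusted p = 0.905, exact permutation test). The share of macrophages with a UMI was 10.2% ± 6.05 for S100a8 at a median depth of 5192 UMIs. After thinning to 1000 UMIs it was 2.01% ± 1.10, against 1.77% ± 0.83 in B cells. Thinning and steps between neighboring classes cannot tell background RNA from expression, so the source of the macrophage level was not tested. Thinning left out 4125 macrophages.

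Most of the S100a8 and S100a9 level of mesothelial, stellate and erythroid cells and hepatocytes came from cells with a UMI of the 6 neutrophil genes above. So did most of that in plasmacytoid dendritic cells and basophils or mast cells, but not that in lymphocytes, macrophages and endothelial cells. Such a UMI can be missing where neutrophil RNA is present, since 38.3% of mature neutrophils had none, with S100a8 at 9308 and S100a9 at 13987 CPM. When cells with a UMI of the same 6 neutrophil genes were left out, mean S100a8 went from 154 to 17.4 CPM in mesothelial cells, from 95.8 to 24.7 in stellate cells, from 63.0 to 28.0 in hepatocytes and from 34.2 to 12.8 in erythroid cells. S100a9 in these 4 classes went from 212 to 22.6, from 124 to 41.1, from 87.0 to 41.7 and from 47.2 to 17.2 CPM. In plasmacytoid dendritic cells S100a8 went from 63.6 to 25.96 and S100a9 from 92.6 to 35.3 CPM, and in basophils or mast cells they went from 128 to 48.2 and from 192 to 69.6 CPM. Cholangiocytes lay between, with S100a8 from 45.3 to 27.1 CPM. S100a8 moved less in other classes, from 23.9 to 16.5 CPM in conventional dendritic cells, 21.2 to 20.3 CPM in macrophages, 20.1 to 17.1 in B cells, 18.9 to 16.2 in endothelial cells, 15.1 to 15.2 in T cells, 14.3 to 13.7 in pre-B cells and 32.4 to 24.9 in NK cells. A list of 19 neutrophil-stage markers summed to 84343 ± 7756 CPM in immature neutrophils, 568 ± 188 in monocytes, 141 ± 23.9 in macrophages, 116 ± 74.8 in hepatocytes and 74.0 ± 16.8 in B cells. Of the 19 markers, 19 were detected in each of these classes, and Ly6g was at 0 in conventional dendritic cells and Ms4a3 in plasmacytoid dendritic cells. Across the 12 mice the S100a8 level of hepatocytes and the S100a8 UMIs that neutrophil stages held per 1000000 UMIs of the library (1267 to 4388) had r = 0.692 and rho = 0.259, and r fell to 0.051 without the 2 mice farthest from the median. In B cells r was 0.711 for S100a8 and 0.718 for S100a9, and in erythroid cells it was 0.092 and 0.018. None of the 36 values computed passed after adjustment (for r, adjusted p = 0.258 for S100a8 in hepatocytes and 0.229 for both genes in B cells, permutation test), and both measures of a mouse come from 1 library. With cells holding a UMI of the 6 neutrophil genes left out, r for S100a8 in erythroid cells was 0.864 (adjusted p = 0.0385, permutation test).

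Nearly all UMIs of calprotectin genes lay in the 3 neutrophil classes. These classes held 94.0% ± 0.451 of the S100a8 UMIs of a control mouse and 90.3% ± 8.65 of those of an anemic mouse, where anemic mouse 2 had 73.2% and the other 5 had 89.5% to 95.8%. Without anemic mice 2 and 3 the difference turned from -3.68 to 0.794 percentage points. For S100a9 these classes held 93.9% ± 0.567 and 94.1% ± 2.07. Immature neutrophils alone held 76.2% ± 1.66 of the S100a8 UMIs in control and 64.4% ± 15.1 in anemic livers. In anemic mouse 2 that share was 38.2% and in anemic mouse 3 it was 55.1%, whereas the other 4 anemic mice ranged from 67.4% to 76.5%. Monocytes held 0.590% ± 0.174 of the S100a8 UMIs in control livers and 22.5% in anemic mouse 2 and 6.22% in anemic mouse 3, with 0.279% to 1.46% in the other 4. Of 40 shares compared between the groups, 0 passed the exact permutation test and 13 had an unadjusted p under 0.05. Shares of single classes and of the unnamed clusters were adjusted together, and those of the 3 neutrophil classes together were left unadjusted. For the S100a8 share of monocytes the unadjusted p was 0.0476 and the adjusted p 0.146, and for the 3 neutrophil classes together the p was 0.437.

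**Figure D4:**
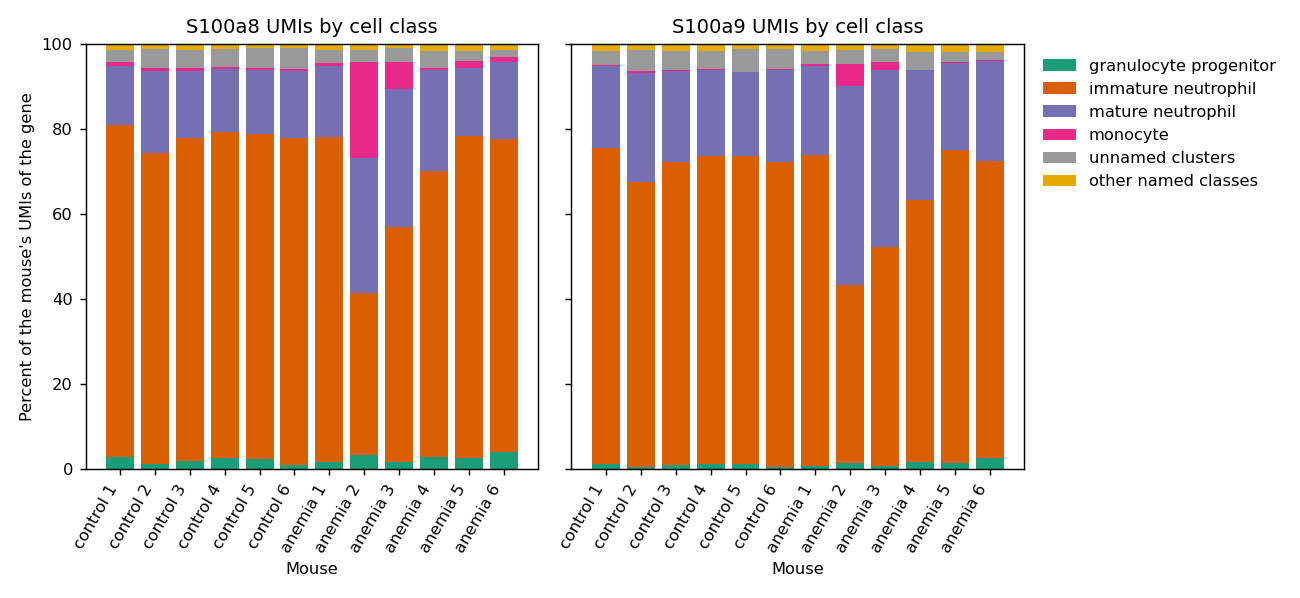
Stacked bars give the percent of a mouse's S100a8 (left) and S100a9 (right) UMIs in granulocyte progenitors, immature neutrophils, mature neutrophils, monocytes, unnamed clusters and other named classes for each of 12 mice. The monocyte segment of S100a8 reaches 22.5% in anemic mouse 2 and is at most 6.22% in the other 11 mice.

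Within the neutrophil stages the level per class did not differ between the groups beyond the spread between mice. In immature neutrophils S100a8 ran from 69334 to 87774 CPM (median 75274) in control mice and from 62304 to 83946 (median 79364) in anemic mice, and the groups overlapped. The log2 fold change was -0.08 ± 0.11 (SE) for S100a8 and -0.02 ± 0.12 for S100a9, with adjusted p of 0.877 and 0.981 by edgeR. In mature neutrophils S100a8 ran from 28201 to 36030 CPM (median 30729) in control and from 13674 to 32975 (median 29725) in anemic mice. The lowest value belonged to anemic mouse 2, and the other 5 anemic mice lay between 26859 and 32975. Of 8 members tested, 0 were called in immature neutrophils (edgeR, 0.567% of all genes called there), 0 in mature neutrophils (0.133%) and 0 in granulocyte progenitors (0.0585%). At an unadjusted p under 0.05 the counts were 0, 1 and 0.

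Most mature neutrophils lay in clusters 8 and 27, and calprotectin levels differed between them. Cluster 8, led by Il1r2, Acod1 and Slc7a11, held S100a8 at 15775 ± 2161 CPM in the control group and 14004 ± 2907 CPM in the anemia group (n = 6 each). Cluster 27, led by Retnlg and Stfa2, held it at 45193 ± 2060 and 45608 ± 2694 CPM. S100a9 showed the same split, with 25311 and 22264 CPM in cluster 8 and 71797 and 69265 CPM in cluster 27. Cluster 8 took 58.3% ± 3.93 of mature neutrophils in control and 64.3% ± 12.3 in anemic mice, and in anemic mouse 2 it took 88.7%. These clusters were drawn from the same cells, so their difference is a description.

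Clusters 23 and 46 of the immature neutrophils differed in S100a6, again as a description. Cluster 23 had S100a6 at 1243 ± 208 CPM in control and 1603 ± 634 in anemic mice, whereas cluster 46 had 65.3 ± 36.1 and 106 ± 69.9 CPM. S100a8 was at 73593 ± 4109 CPM in cluster 23 and 92908 ± 11768 CPM in cluster 46 of control mice. Summed over all mice it was at 77906 and 87307 CPM, and S100a9 was at 88692 and 89212 CPM. Over the stages S100a6, a partner of the ubiquitin ligase adaptor Cacybp, stood at 546 CPM in progenitors, 939 CPM in immature neutrophils and 3256 ± 510 CPM in mature neutrophils. S100a11, which binds annexin A1, stood at 377, 1066 and 2311 ± 472 CPM, and its step from immature to mature neutrophils was 1.09 ± 0.08 on the log2 scale (adjusted p = 0.00415, exact permutation test). S100a10, the annexin A2 partner, stood at 316 CPM in progenitors, 24.9 in immature and 18.2 in mature neutrophils, and the last pair did not differ beyond their spread (adjusted p = 0.409, exact permutation test). Cluster 72 of the immature neutrophils, in which 98.3% of cells were called doublets, held S100a10 at 216 CPM, against 11.8 and 10.9 CPM in clusters 23 and 46. S100a4 stood at 54.2, 7.45 and 8.25 CPM in these classes.

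Monocytes were the main class of S100a4, a member known to bind non-muscle myosin and to mark motile cells. It stood at 245.5 ± 49.2 CPM in monocytes, above NK cells at 67.8 CPM by 1.86 ± 0.15 on the log2 scale (adjusted p = 0.00415, exact permutation test), T cells at 59.8 CPM and granulocyte progenitors at 54.2 CPM. NK cells and T cells did not differ beyond their spread (0.16 ± 0.08, adjusted p = 0.129, exact permutation test). In macrophages S100a4 was at 1.57 CPM. Monocytes also carried S100a6 at 1836 ± 309 CPM and S100a11 at 563 ± 81.0 CPM, where macrophages had 18 and 22.8 CPM. S100a10 was at 223 ± 66.8 CPM in monocytes and 33.3 CPM in macrophages. Within macrophages it was at 8.24 and 15.7 CPM in the most numerous clusters, 4 and 19, and at 116 CPM in cluster 33, where 87.3% of cells were called doublets and 2 macrophage markers and 2 endothelial markers (Kdr and Stab2) stood in the top 10 genes. S100a1 went against this order, with 61.2 CPM in macrophages and 34.5 CPM in monocytes, and S100a13 was at 87.1 and 97.5 CPM.

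Anemia left the monocyte class without a called member, although values of S100a8 were spread widely among anemic mice. S100a8 in monocytes ran from 611 to 1036 CPM (median 929.5) in control mice and from 395 to 2978 CPM (median 1121) in anemic mice. Anemic mouse 3 had 2978 and anemic mouse 2 had 1894 CPM, and the other 4 anemic mice ranged from 395 to 1171 CPM, so the groups overlapped. The log2 fold change was 0.75 ± 0.34 (SE) with an adjusted p of 0.319 (edgeR), and 0.01 ± 0.21 without anemic mice 2 and 3. With all mice the log2 fold change was 0.12 ± 0.15 for S100a4, 0.27 ± 0.12 for S100a6 and 0.31 ± 0.44 for S100a9. Of 8 members 0 were called, at 0.539% of all genes called, and 2 had an unadjusted p under 0.05. The study's own list of changed genes in its monocyte cluster, from a voom-limma model over all its cell types, has S100a4 and S100a6 higher in anemia. The study also names S100a8 among the chemotaxis genes of pathways activated there. Its cell clusters and model differ from those used here. Joint voom-limma with quality weights, run on the classes used here, did not call a member in monocytes either. Monocytes consisted of cluster 10, with Ccr2 and Ace among its leading genes, and cluster 13, with Ly6c2, Saa3, Ptgs2 and Nos2. Cluster 13 made up 6.82% ± 3.64 of monocytes in control and 34.5% ± 22.2 in anemic mice, with 71.8% in anemic mouse 2 and 50.0% in anemic mouse 3. S100a8 was higher in cluster 13 (2539 ± 1369 CPM in anemic mice) than in cluster 10 (488 ± 210 in control and 563 ± 201 in anemic mice). The 5 control mice with at least 10 cells in cluster 13 had 5451 ± 2292 CPM, and 68.5% of its 4759 cells came from anemic mouse 2. The part of this makeup in the class values was not tested.

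In macrophages, S100a11 came closest to a call. It ran from 15.5 to 25.2 CPM (median 17.0) in control and from 19.9 to 40.7 CPM (median 25.5) in anemic mice. The highest values were those of anemic mouse 2 at 40.7 and anemic mouse 3 at 32.7 CPM, and the groups overlapped. The log2 fold change was 0.72 ± 0.20 (SE) with an adjusted p of 0.0504 (edgeR), and 0.39 ± 0.13 with an adjusted p of 0.0930 without anemic mice 2 and 3. DESeq2 called S100a11 (adjusted p = 0.0129). So did edgeR with the replicate number as a block (adjusted p = 0.0262), at resolution 1 (0.0427) or without cells holding a neutrophil-marker UMI (0.0430). It was also called by edgeR at a mitochondrial limit of 10% (0.0447) and with no filter on low counts (0.0474). The same held without control mouse 3, anemic mouse 1 or anemic mouse 4 (at most 0.0498). The remaining fits did not call it. The makeup of the class moved with the S100a11 level. Cluster 4, with S100a11 at 9.03 and 10.4 CPM in control and anemia, took 54.6% ± 4.00 of control and 36.9% ± 21.9 of anemic macrophages. Cluster 25, with 67.1 and 45.8 CPM, took 2.71% ± 1.53 and 19.1% ± 23.2, with 58.6% in anemic mouse 2 and 36.7% in anemic mouse 3. Cluster 33, with 87.3% called doublets and endothelial markers among its leading genes, took 8.83% ± 1.21 of control and 7.71% ± 2.23 of anemic macrophages, and its S100a11 was at 43.2 ± 9.64 CPM in control against 80.5 ± 28.8 CPM in anemia. The part of these clusters in macrophage differences was not tested. S100a8 and S100a9, at levels near those of B cells, had 0.87 ± 0.34 and 0.81 ± 0.28 (edgeR adjusted p = 0.154 and 0.110). Without anemic mice 2 and 3 they had 0.28 and 0.43 (edgeR adjusted p = 0.584 and 0.293). Of 8 members 0 were called at 4.79% of all genes, and 5 had an unadjusted p under 0.05. Anemia effects were compared between pairs of the 5 myeloid classes in 80 tests of the difference itself, of which 0 passed and 16 had an unadjusted p under 0.05. The smallest adjusted p was 0.0577 (exact permutation test), reached by S100a9 between immature and mature neutrophils (difference 0.32 on the log2 scale), and by S100a11 between mature neutrophils and monocytes (-0.47) and between mature neutrophils and macrophages (-0.89). Without anemic mouse 3 these 3 passed (adjusted p = 0.0433, exact permutation test), as did S100a6 between mature neutrophils and monocytes (-0.45).

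With all mice and the main settings, the differences that passed lay outside the neutrophil, monocyte and macrophage classes. In the neutrophil stages and monocytes 0.0585% to 0.567% of all genes were called, and in macrophages 4.79%. A count of 0 of 8 members is near these shares. Of 145 pairs of a member and a class tested (18 classes and all cells together), 13 were called higher and 1 lower in anemia, and 54 had an unadjusted p under 0.05. The other 7 of 152 pairs had too few UMIs to test, with S100a4 in 6 of them and S100a1 in 1. Counts in single classes are to be read against the share of all genes called in the same class. That share ran from 0.0301% in cholangiocytes to 46.8% in hepatocytes, so the total over classes is not read as a result about the members.

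Hepatocytes, the class with the largest share of called genes, had 4 of 7 tested members higher in anemia and 46.8% of all genes called, 2358 higher and 2811 lower. S100a1, best known as a regulator of calcium handling in heart muscle, ran from 84.0 to 123 CPM (median 105.7) in control and from 198 to 295 CPM (median 239) in anemic mice. Every anemic mouse was above every control mouse. The log2 fold change was 1.33 ± 0.11 (SE) with an adjusted p of 1.23e-07 (edgeR). S100a1 was higher in anemia within each of the 5 hepatocyte clusters, for example at 52.5 ± 3.79 against 96.5 ± 12.1 CPM in cluster 28 and at 243 ± 29.3 against 383 ± 49.2 CPM in cluster 37.

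S100a10 in hepatocytes ran from 40.0 to 58.6 CPM (median 47.9) in control and from 73.6 to 173 CPM (median 90.9) in anemic mice, with a log2 fold change of 1.28 ± 0.17 (adjusted p = 1.54e-05, edgeR). S100a13, which takes part in the release of Fgf1 and Il1a, ran from 20.5 to 31.8 CPM and from 42.2 to 71.1 CPM, with 1.09 ± 0.15 (adjusted p = 1.18e-05, edgeR). These groups did not overlap either. S100a11 was low in hepatocytes, at 19.0 ± 4.44 and 38.6 ± 17.4 CPM, with 1.06 ± 0.23 (adjusted p = 0.00112, edgeR), and its groups overlapped. The median over the 7 members tested was 1.06 and that over all genes was -0.07. Library sizes without TMM factors moved the latter to -0.25 and left the 4 members between 0.89 and 1.15. Without anemic mice 2 and 3 the same 4 members were called. The makeup of the class differed too: cluster 28, the lowest in S100a1 and S100a10, took 22.9% ± 3.48 of control and 9.02% ± 2.25 of anemic hepatocytes, while cluster 12 took 19.6% ± 4.66 and 33.5% ± 8.70 and cluster 37 took 6.05% ± 2.10 and 10.8% ± 2.58. Within cluster 28 S100a10 was at 30.4 and 57.6 CPM, and its mean was higher in anemia in each of the 5 clusters.

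**Figure D5:**
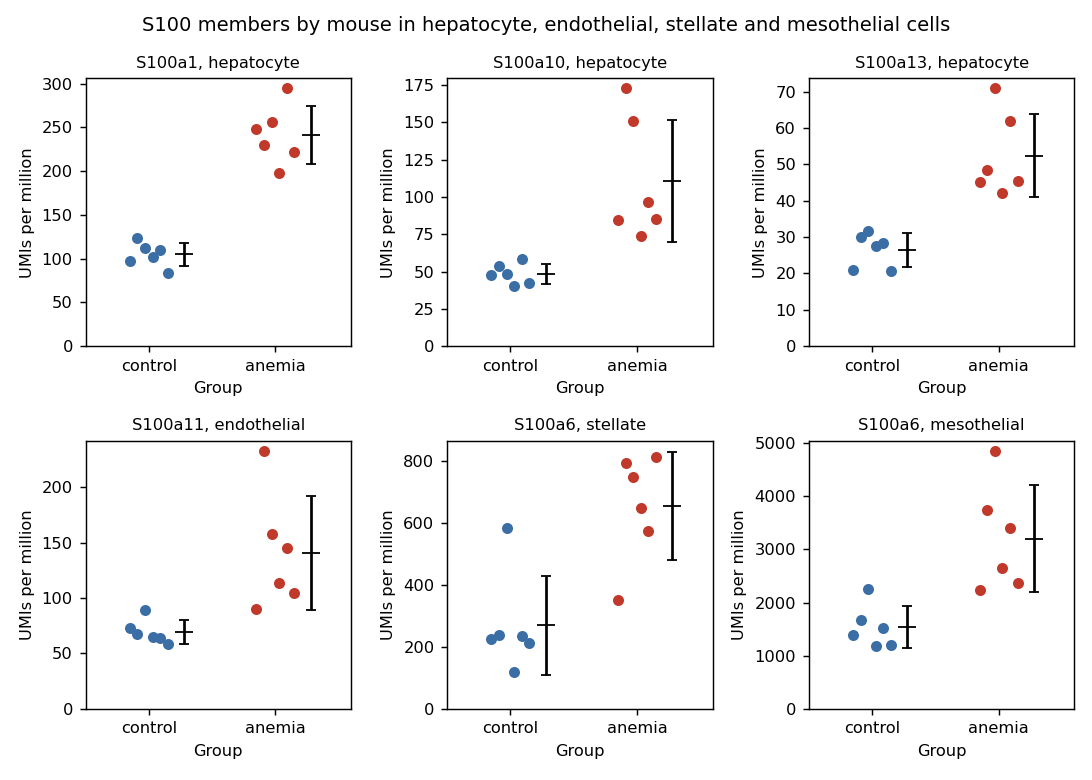
Levels in CPM for 6 member and class pairs called between control (blue) and anemia (red), each point 1 mouse, with mean and SD in black beside the points (n = 6 per group). The groups do not overlap for S100a1, S100a10 and S100a13 in hepatocytes and S100a11 in endothelial cells, and 1 control mouse lies among the anemic mice for S100a6 in stellate and in mesothelial cells.

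In endothelial cells 1 of 7 tested members was called, S100a11, where 18.4% of all genes were. It ran from 58.1 to 88.8 CPM (median 66.3) in control and from 90.0 to 233 CPM (median 130) in anemic mice, without overlap. The log2 fold change was 1.15 ± 0.21 (SE) with an adjusted p of 0.00175 (edgeR). S100a11 had a higher mean in anemia in each of the 6 endothelial clusters, from 59.2 ± 8.73 to 123 ± 44.1 CPM in the largest of them and from 90.3 ± 28.6 to 218 ± 54.3 CPM in cluster 22. S100a13, for which endothelial cells were the highest class at 251 CPM, was not called, with an edgeR log2 fold change of 0.07 ± 0.07 and an adjusted p of 0.551.

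The class named stellate, after markers such as Dcn, Col1a1, Reln and Colec11, had 3 of 8 members higher in anemia, with 14.2% of all genes called. S100a6 ran from 120 to 583 CPM (median 231) in control and from 350.0 to 812 CPM (median 698) in anemic mice, with a log2 fold change of 1.35 ± 0.30 (SE, adjusted p = 0.00673, edgeR). Control mouse 3, at 583 CPM, lay above 2 anemic mice. The makeup of the class moved with this difference. Cluster 29, led by Mfap4, Col1a1, Lum, Dpt and Mfap5, raised 5 of the 8 stellate markers, against 7 and 8 in clusters 38 and 39, which were led by other genes such as Colec11 and Reln. It had S100a6 at 1044 ± 279 (control) and 1274 ± 212 CPM (anemia), against 10.4 and 14.5 CPM in cluster 38 and 46.0 ± 21.2 (control) and 149 ± 110.5 CPM (anemia, 5 mice) in cluster 39, and it took 33.5% ± 9.19 of stellate cells in control and 63.6% ± 9.30 in anemic mice. Cluster 39 took 32.7% ± 5.03 and 17.3% ± 7.09. The part of these clusters in the class difference was not tested. S100a11 had 0.46 ± 0.14 (adjusted p = 0.0325, edgeR) and S100a9 had 1.19 ± 0.30 (adjusted p = 0.0132, edgeR). The S100a11 call was lost in 9 of 12 edgeR fits that each left out 1 mouse. It was also lost without TMM factors (log2 fold change 0.39, edgeR adjusted p = 0.0582) and without anemic mice 2 and 3 (0.40, edgeR adjusted p = 0.0881). Within clusters 29, 38 and 39 S100a11 went from 402 ± 46.5 to 430.4 ± 40.5, from 160.3 ± 18.3 to 189 ± 55.6 and from 371 ± 52.3 to 358 ± 89.5 CPM. S100a9 stood at 78.7 ± 36.3 and 168.5 ± 79.5 CPM, beside a summed neutrophil list of 146 ± 39.5 and 209 ± 72.3 CPM in the same cells, and the part of neutrophil RNA in it was not tested. The caller of doublets marked 50.9% of the cells of cluster 29 and 91.7% of those of cluster 38. Without called doublets S100a6 and S100a9 were still called and S100a11 was not (log2 fold change 0.26, edgeR adjusted p = 0.307). Joint voom-limma did not call S100a9 (adjusted p = 0.0725).

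Mesothelial cells, the covering layer of the liver surface, had 2 of 8 members higher with 0.623% of all genes called. S100a6 ran from 1184 to 2252 CPM (median 1457) in control and from 2236 to 4854 CPM (median 3019) in anemic mice, with a log2 fold change of 1.12 ± 0.20 (SE, adjusted p = 0.0214, edgeR). The lowest anemic mouse lay just under the highest control mouse. In the same cells the neutrophil list summed to 122 ± 34.2 and 287 ± 321 CPM, and S100a8 stood at 38.3 ± 31.0 and 271 ± 499.7 CPM. The part of neutrophil RNA in the S100a6 difference was not tested. S100a10 had 0.70 ± 0.15 (adjusted p = 0.0435, edgeR), at 437 ± 102 and 683 ± 110 CPM. Without anemic mice 2 and 3 S100a6 had 0.85 (edgeR adjusted p = 0.0697) and S100a10 had 0.57 (edgeR adjusted p = 0.189), and S100a6 was not called without control mouse 1 either (adjusted p = 0.0665). The S100a10 call was also lost in 10 of 12 edgeR fits that each left out 1 mouse, without TMM factors (adjusted p = 0.0850), with the level of Y-linked genes in each mouse as a covariate (adjusted p = 0.118) and at a mitochondrial limit of 10% (adjusted p = 0.0552), at log2 fold changes of 0.61 to 0.82 over the 12 fits. The class was small, with 28 to 125 cells per mouse, and consisted of cluster 45 alone, in which 80.4% of cells were called doublets. Too few cells per mouse were left once called doublets were removed for it to be tested.

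Conventional dendritic cells had 3 of 8 members higher with 0.835% of all genes called. S100a4 ran from 17.2 to 32.31 CPM (median 22.5) in control and from 32.30 to 90.0 CPM (median 54.5) in anemic mice, with a log2 fold change of 1.20 ± 0.22 (SE, adjusted p = 0.0166, edgeR). S100a6 stood at 206 ± 55.4 and 384 ± 133 CPM, with 0.84 ± 0.19 (adjusted p = 0.0452, edgeR). Without anemic mice 2 and 3 the call of S100a6 was lost (0.61, edgeR adjusted p = 0.0933), while S100a4 had 0.86 (adjusted p = 0.0451). Of 12 edgeR fits that each left out 1 mouse, S100a4 was not called without control mouse 4 or anemic mouse 3 (adjusted p up to 0.0573), and S100a6 was not called in 8. S100a6 was also lost without called doublets (adjusted p = 0.0505) and with Y-linked genes as a covariate (adjusted p = 0.0710). S100a8 had 1.78 ± 0.36 (adjusted p = 0.0295, edgeR) at 10.8 ± 4.32 and 37.0 ± 21.9 CPM. In anemic mice it stood at 20.4 CPM in B cells, 15.9 in T cells and 45.9 in NK cells. The neutrophil list summed to 152 ± 36.4 and 262 ± 138 CPM in the conventional dendritic cells. The part of neutrophil RNA in the S100a8 difference was not tested. The S100a8 call was lost in 6 of these 12 fits, without called doublets (edgeR adjusted p = 0.0547) and with the covariate (adjusted p = 0.0694). Joint voom-limma with quality weights called neither S100a6 (adjusted p = 0.152) nor S100a8 (adjusted p = 0.669) in these cells.

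In pre-B cells S100a11 was lower in anemia, the only call in that direction. It ran from 60.7 to 76.5 CPM (median 66.7) in control and from 47.6 to 62.5 CPM (median 53.8) in anemic mice, with a log2 fold change of -0.34 ± 0.08 (SE, adjusted p = 0.0323, edgeR), in a class with 1.44% of all genes called, and it was not called without anemic mice 2 and 3 (-0.33, edgeR adjusted p = 0.0788), without called doublets (-0.32, adjusted p = 0.0724) or by joint voom-limma (-0.35, adjusted p = 0.234), and in 9 of 12 edgeR fits that each left out 1 mouse. No member was called in the other classes tested by edgeR, of which B cells had 2.13% of all genes called, plasmacytoid dendritic cells 1.03%, erythroid cells 0.964%, basophils or mast cells 0.653%, NK cells 0.604%, T cells 0.276% and cholangiocytes 0.0301%. At an unadjusted p under 0.05 these classes had 4, 3, 0, 3, 2, 0 and 3 members. Over all cells together, where a change in cell numbers and a change of RNA per cell cannot be told apart, 0 of 8 members were called at 6.93% of all genes, and 5 had an unadjusted p under 0.05. S100a13 over all cells was lower in every anemic than in every control mouse on the CPM scale, at 104 ± 7.49 against 120 ± 5.16 CPM, while its edgeR log2 fold change with TMM factors was 0.03 ± 0.06.

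Genes that work with the family were followed in 4 lists of 40 genes in all, for which 562 pairs of a gene and a class were tested, 34 called higher and 11 lower. These counts stand against 46.8% of all genes called in hepatocytes, 18.4% in endothelial, 14.2% in stellate cells and 4.79% in macrophages. In macrophages, where Tlr4 stood at 90.3 ± 6.67 and 86.6 ± 11.3 CPM in the groups, the receptor list (12 of 12 tested) had Bsg higher and Ly96 lower. Bsg, which encodes the S100a9 receptor basigin, stood at 290.3 ± 24.2 and 372 ± 27.3 CPM (log2 fold change 0.46 ± 0.09, adjusted p = 0.0164, edgeR), without overlap. Ly96, the Tlr4 partner MD-2, stood at 115 ± 7.27 and 86.0 ± 13.6 CPM (-0.33 ± 0.09, adjusted p = 0.0480, edgeR). Of 12 annexins and targets in macrophages, Anxa2, the partner of S100a10, rose from 74.1 ± 7.79 to 134 ± 23.9 CPM (0.96 ± 0.14, adjusted p = 0.00166, edgeR), and Myh9, a target of S100a4, from 155 ± 4.6 to 200.0 ± 17.2 CPM (0.47 ± 0.09, adjusted p = 0.00966). Among other S100 genes, S100g was called in macrophages at 0.296 ± 0.208 and 2.28 ± 2.17 CPM (2.92 ± 0.68, adjusted p = 0.0282, edgeR), beside 14.6 and 166 CPM in hepatocytes, a pair of values picked after they were seen. Without anemic mice 2 and 3 the 5 macrophage calls were kept (Anxa2 0.75 ± 0.08, Myh9 0.36 ± 0.06, Bsg 0.37 ± 0.07, S100g 3.41 ± 0.57 and Ly96 -0.27 ± 0.08, with edgeR adjusted p of at most 0.0488), and the shift between macrophage clusters given above applies to them too. No gene of the 4 lists was called in monocytes or in a neutrophil stage, where 0.0585% to 0.567% of all genes were. A count of 0 is near these shares. The study's list for its own monocyte cluster has S100g, Cd33 and Emb higher and Cd36 lower. That list comes from other clusters and a voom-limma model over all its cell types. In hepatocytes the counts of higher and lower calls were 2 and 0 of 3 other S100 genes, 1 and 1 of 8 receptors, 4 and 1 of 12 annexins and targets and 1 and 2 of 6 transcription factors. In endothelial cells they were 1 and 1 of 6, 2 and 1 of 11, 4 and 1 of 12 and 2 and 1 of 6, and in stellate cells 0 and 1 of 3, 1 and 0 of 12, 3 and 1 of 12 and 2 and 0 of 6. Mesothelial cells had 1 higher receptor and 1 higher annexin target, at 0.623% of all genes called. All cells together had 1, 1, 2 and 1 higher, at 6.93% of all genes called.

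The genes whose pattern over 18 classes was most like that of a member were taken from 8511 genes with at least 50 CPM in a class, by Pearson's r of log2(CPM + 1), as a description of classes that share their libraries. For S100a9 these were Stfa1 (r = 0.990), Cstdc5 (0.982) and Stfa3 (0.975), and for S100a8 they were Stfa1 (0.986), Mmp8 (0.982) and Stfa3 (0.969). Stfa and Cstdc genes encode stefins, inhibitors of cysteine proteases, and Mmp8 encodes neutrophil collagenase. For S100a4 they were Traf1 (0.881), Eno3 (0.857) and the chemokine receptor Ccr2 (0.841), and for S100a11 Map2k4 (0.871), Ralgapa1 (0.864) and Anxa1 (0.852). For S100a6 they were Lpcat4 (0.812), Sorl1 (0.788) and Sema4a (0.786), and for S100a10 Zfr (0.896), Atp2a2 (0.891) and Sec11a (0.886). For S100a1 they were Snx7 (0.908), F11r (0.881) and Acadsb (0.878), and for S100a13 Tmem9b (0.898), Mib1 (0.872) and Sugt1 (0.870). Among the members themselves S100a8 and S100a9 were most alike (r = 0.988), followed by S100a6 and S100a11 (0.868), and the least alike were S100a9 and S100a10 (r = -0.417). S100a1 and S100a13, whose promoter windows overlap, had r = 0.308 with each other. Both had over 50 CPM in mesothelial, endothelial, stellate and cholangiocyte cells, macrophages and granulocyte progenitors, but had their highest levels in different classes.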

How the data were processed

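Livers were dissociated and single cells captured on the 10x Genomics platform, with 1 library per mouse and no pooling. The sample labels name another kit version than the study's methods. The labels put tissue collection at postnatal day 11, the day after the last draw, while the study's text also gives day 10. The authors deposited raw UMI counts per gene and cell barcode, made with Cell Ranger 7.0.0 (per the file headers) and mm10, with no normalization. A barcode was retained if it had 500 to 50000 UMIs, of which no more than 50% were mitochondrial. Libraries held 14184 to 21186 kept cells with a median of 1769 to 2889.5 UMIs per cell, which limits what can be detected in single cells.

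Cells were clustered without the S100 genes (2000 variable genes, 20 principal components, 20 neighbors, leidenalg 0.10.2, resolution 2) into 79 clusters, and 16 clusters with 4.75% of cells stayed unnamed. Doublets were called in 11.3% to 16.9% of the cells of a library and were kept. This number was set in advance, at 0.8% per 1000 cells of the library, and is not a measured rate. The cells with the highest doublet scores were marked.

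Counts were summed per mouse and class with at least 10 cells in at least 5 mice of a group, and the groups were tested by the quasi-likelihood method of edgeR 4.0.16 with TMM factors, for genes that averaged 5 or more UMIs per mouse, with Benjamini-Hochberg adjustment over all genes of a class. A gene was called at an adjusted p under 0.05. The p-values measure the spread between mice, each of which is 1 library. Neighboring classes were compared within mice by exact sign-flip tests of log2(CPM) with 0.5 UMI added, and UMI shares and effect differences by exact permutation over 924 regroupings, all two-sided. Positions are from GENCODE M21, and promoter sequences from RefSeq (GRCm38.p6). All 8 members in each class were named, with partner genes called in a myeloid class and the 3 genes most like each member. The members, lists and rules were chosen with earlier results of these data known. Alternatives were DESeq2 1.42.0, joint voom-limma, no TMM, other filters, doublets left out, clustering at resolution 1, and mice left out.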

Additional observations from a re-analysis of the deposited data

Results flagged for a closer look

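Among 108 groups of 6 mice (54 pairs of a member and a class), 14 had a mouse set apart from the other 5 by Dixon's criterion, which chance meets in about 1 in 20 groups. Of these 14, 4 were values of anemic mouse 2 and 7 were values of control mice. Their causes were not tested.

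Anemic mouse 2 had low levels of some members within its neutrophil classes. In mature neutrophils S100a8 was at 13674 CPM in that mouse (others 26859 to 32975) and S100a9 at 20180 CPM (42643 to 48832). In immature neutrophils S100a8 was at 62304 CPM (76380 to 83946) and S100a11 at 840.0 CPM (1041 to 1134).

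Control mouse 3 was high in 6 groups outside the neutrophils. S100a6 was at 583 CPM in its stellate cells (others 120 to 237), 316 CPM in its conventional dendritic cells (170 to 206) and 26.6 CPM in its macrophages (7.69 to 13.3). S100a11 was at 337 CPM in its stellate cells (219 to 241) and 25.2 CPM in its macrophages (15.5 to 18.2), and S100a13 was at 105 CPM in its macrophages (82.1 to 89.7).

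The other 4 values were single. S100a1 was at 63.5 CPM in monocytes of anemic mouse 6 (others 25.9 to 33.0). S100a10 was at 258 CPM in granulocyte progenitors of anemic mouse 4 (316 to 340.0) and at 44.2 CPM in immature neutrophils of control mouse 2 (18.6 to 27.6). S100a9 was at 324 CPM in stellate cells of anemic mouse 5 (93.5 to 155).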

How the results depend on the processing

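Of 319 alternative fits of the 14 called pairs, 255 kept the call, 64 lost it and 0 changed direction. The 4 hepatocyte members, S100a11 in endothelial cells and S100a6 in stellate cells were called in every fit run. The others each lost the call in at least 1 fit, and mesothelial cells could not be fitted without called doublets. No fit adjusted for the shares of the clusters within a class, which moved between the groups in stellate cells and hepatocytes. Against 13 pairs called higher and 1 lower, DESeq2 called 20 and 2, no filter on low counts gave 28 higher, joint voom-limma gave 0 lower, library sizes without TMM factors 2 lower, and both removal of called doublets and removal of anemic mice 2 and 3 gave 0 lower. Leaving out 1 mouse gave 8 (without control 1 or control 4) to 17 higher and 0 to 2 lower. A replicate block gave 24 higher. The labels do not say that mice of the same number are paired. In 24 checks same-numbered mice had correlations of -0.203 to 0.478, and in 7 of them the best match was the own number. These checks cannot settle whether a pairing exists. Partner genes called lower went from 11 to 17 without anemic mice 2 and 3.

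Shares past the threshold, not counting those of the neutrophil stages together, went from 0 to 2 without called doublets (both genes in erythroid cells). With 1 mouse left out they ranged from 0 to 5, with 5 without control 1 and 2 without control 6. The difference (anemia minus control, percentage points) in the S100a8 UMIs held by neutrophil stages was -3.68, became -5.41 without called doublets (exact permutation p = 0.0260), and turned to 0.794 without anemic mice 2 and 3 (p = 0.0619, exact permutation). It was -4.79 to -0.264 with 1 mouse left out, the latter without anemic mouse 2. For S100a9 it was 0.201, became -1.36 without called doublets (p = 0.0325, exact permutation) and 1.23 without anemic mice 2 and 3 (p = 0.0286, exact permutation), and ranged from -0.195 (without anemia 6) to 0.968 (without anemia 2) with 1 mouse left out, with -0.0717 without anemia 5. With cells that held a neutrophil-marker UMI left out, r for S100a8 in erythroid cells went from 0.092 to 0.864 (adjusted p = 0.0385, permutation test) and for S100a9 in B cells from 0.718 to 0.8998 (adjusted p = 0.0500). Effect differences past the threshold ranged from 0 to 4, the latter without anemia 3. The class with the highest level stayed the same for 7 members, and for S100a1 it was mesothelial cells without called doublets or at resolution 1. The causes of these changes were not tested.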
